A study of Mus musculus with 6 samples.

Results

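The genes described here are 9 phospholipase A2 genes, a group of lipid-cleaving enzymes with one of their receptors, taken from a table of 33682 gene rows. They were chosen by gene symbol, with earlier results of these data known, and each symbol occurs in a single row. The only measured value in the rule is the mean FPKM, which would have decided between rows had a symbol recurred. Pla2g2a, Pla2g5, Pla2g7 and Pla2g12a encode secreted enzymes. Pla2g4a and Pla2g6 encode cytosolic enzymes, Pla2g15 a lysosomal one and Pla2g16 (also called Plaat3) a small membrane-anchored one, and these 4 are called intracellular here. Pla2r1 encodes a cell surface receptor that binds secreted forms.

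Phospholipases A2 cut the fatty acid from the middle position of a membrane phospholipid and leave a lysophospholipid. When the fatty acid is arachidonic acid, cyclooxygenases turn it into prostaglandins and 5-lipoxygenase turns it into leukotrienes. The secreted group II enzymes are induced by inflammatory cytokines in many connective tissue cells, the cytosolic enzyme of Pla2g4a prefers arachidonic acid and is activated by calcium and by MAP kinases, and the enzyme of Pla2g7 breaks down platelet-activating factor.

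RNA sequencing covered 6 libraries of cultured neonatal rat heart cells, all of wild-type genotype. In 3 of them the culture had received the conditioned medium of bone marrow-derived mast cells without a mutation in Alox5 (WT medium), and in 3 that of ALOX5-/- mast cells, which lack 5-lipoxygenase (Alox5KO medium). The sample labels of both groups read as mast cells treated with TNF-alpha, and do not say whether the heart cells also received it. Leukotriene levels and cultures without mast cell medium were not analysed here.

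Values are FPKM, fragments scaled to gene length and library size, so that levels can be compared between genes. The libraries held between 13284088 and 15766187 reads, recovered from the deposited values. Sample labels call the cells cardiomyocytes, while the series design speaks of a fibroblast culture. Summed over 12 genes each, fibroblast markers reached between 10797 and 12744 FPKM per library, and cardiomyocyte markers between 35 and 136 FPKM. The most abundant genes carry such sums. The median fibroblast marker was at 218 to 501 FPKM with WT medium and at 84.2 to 129 FPKM with Alox5KO medium. The labels do not say whether replicates were separate cultures, so p-values measure the spread between these libraries, which may be technical.

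All 9 genes had a mean of at least 1 FPKM and were among the 12341 genes tested. Setting the 2 media side by side addresses which of these transcripts differ when the medium came from mast cells that lack Alox5. Of the 9 genes, 3 fell, namely Pla2g2a, Pla2g5 and Pla2g4a, 0 rose, and 6 did not pass the test (limma with Benjamini-Hochberg (BH) adjustment, adjusted p below 0.05). Over all tested genes 20.7% were called, 10.6% as lower and 10.0% as higher. Among the secreted forms 2 of 4 fell and among the intracellular forms 1 of 4. The median log2 fold changes were -1.67 and 0.03, beside a median of -0.00082 over all tested genes. No secreted form lay near the median of -1.67. Pla2g2a and Pla2g5 were at -5.09 and -3.19, and Pla2g12a and Pla2g7 at -0.14 and -0.03. In 4 of the 9 genes the groups did not overlap, which was also the case for 37.6% of all tested genes.

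**Figure D1:**
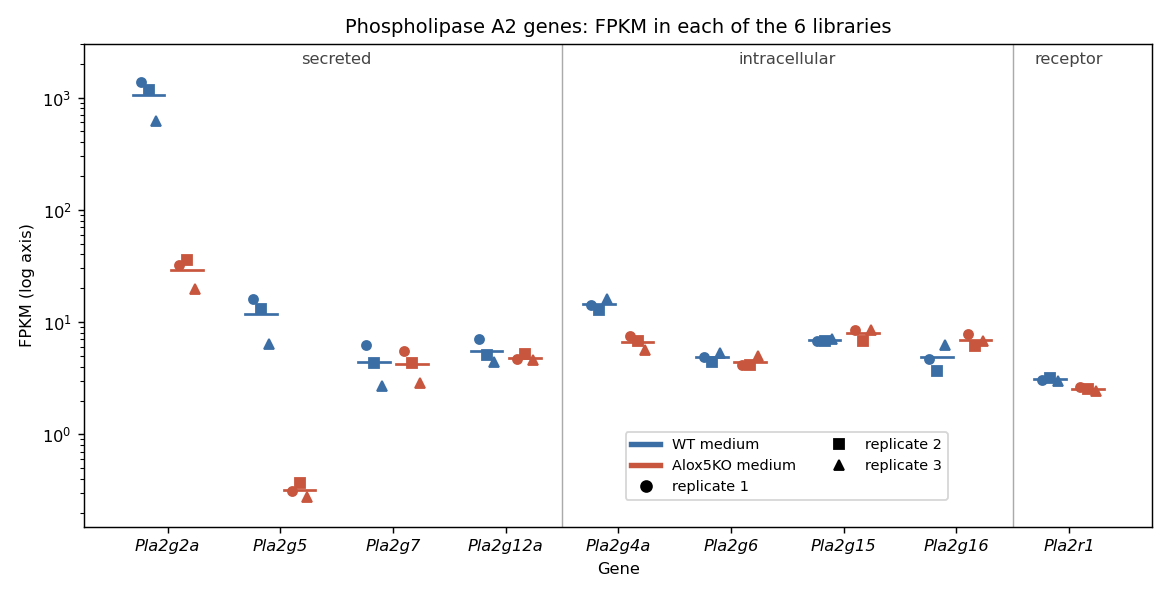
FPKM (log axis) of the 9 genes in each library, blue for WT medium and red for Alox5KO medium. Symbols mark replicates 1 to 3 and horizontal lines the group means. Pla2g2a and Pla2g5 are far lower with Alox5KO medium, Pla2g4a is lower without overlap, and the other genes lie close together.

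Among the secreted forms, Pla2g2a encodes the group IIA enzyme, an acute phase protein that also kills Gram-positive bacteria. Its level was 1363, 1159.7 and 613 FPKM in WT-medium replicates 1, 2 and 3, and 31.9, 35.4 and 19.6 FPKM in Alox5KO-medium replicates 1, 2 and 3. Every WT-medium library was above every Alox5KO-medium library, and replicate 3 was the lowest of both groups. The mean fell from 1045 ± 388 to 29.0 ± 8.30 FPKM (SD, n = 3 libraries, as for every mean below), which is 2.77% of the WT-medium level. On the log2(FPKM + 1) scale the fold change was -5.09 (SE 0.37, limma, BH-adjusted p = 4.3e-04), and 6 of the 12341 tested genes had a larger fall. Pla2g2a ranked between 59 and 134 among all rows by FPKM in the WT-medium libraries, and between 2370 and 4094 in the others. It stayed the most abundant of the 9 genes with either medium.

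Pla2g5 encodes the group V enzyme, which acts on phosphatidylcholine membranes more readily than the group IIA enzyme. It had 15.9, 13.1 and 6.33 FPKM in WT-medium replicates 1, 2 and 3, against 0.315, 0.369 and 0.276 FPKM with Alox5KO medium. Again the groups were far apart and replicate 3 was the lowest in each. The mean fell from 11.8 ± 4.94 to 0.320 ± 0.0464 FPKM, or 2.71% of the WT-medium level. These values rest on 375, 289 and 153 reads in the WT-medium libraries and on 8, 10 and 7 in the Alox5KO-medium libraries. The sum of the latter, 25 reads, has an exact Poisson 95% interval of 16.2 to 36.9 reads, which covers counting error only. The log2 fold change was -3.19 (SE 0.29, limma, BH-adjusted p = 2.2e-04). Because 1 is added to each value, that scale understates a fall to so low a level, and with a pseudocount of 0.1 the log2 fold change was -4.73.

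Pla2g7 and Pla2g12a, the other secreted forms, did not pass the test. Pla2g7 encodes the plasma enzyme that inactivates platelet-activating factor, and it had 6.31, 4.28 and 2.68 FPKM in WT-medium replicates 1, 2 and 3, against 5.51, 4.28 and 2.89 FPKM after Alox5KO medium. The values of the groups lay over each other, and those of replicate 3 were lowest in both. Its log2 fold change of -0.03 had a 95% interval of -0.69 to 0.63 (limma, BH-adjusted p = 0.96), so changes inside that range are not excluded. Pla2g12a encodes the group XIIA enzyme, which has weak catalytic activity, and it had 7.10, 5.06 and 4.43 FPKM in the WT-medium libraries, against 4.69, 5.20 and 4.61 FPKM after Alox5KO medium. WT-medium replicate 1 stood above the other 5 libraries. The log2 fold change was -0.14, with a 95% interval of -0.51 to 0.22 (limma, BH-adjusted p = 0.59), and 0.02 without WT-medium replicate 1.

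Pla2g2a and Pla2g5 are neighbours on chromosome 5. Pla2g2a (ENSRNOG00000016945) runs from 157282669 to 157285328 on the plus strand, and Pla2g5 (ENSRNOG00000016838) from 157247781 to 157268903 on the minus strand, in the table's coordinates. The sources used here do not give the rat build. The genes point away from each other, with 13.8 kilobases between their starts. The ratio of Pla2g2a to Pla2g5, both in FPKM, was 85.6, 88.3 and 96.9 with WT medium and 101.2, 96.0 and 70.9 with Alox5KO medium. The ratio thus overlapped between the groups, although each gene had fallen to under 3% of its WT-medium mean. With Alox5KO medium it divides by Pla2g5 values that rest on 8, 10 and 7 reads, so only a large difference in the ratio could have shown. The sources used here do not say how reads that fit several genes were counted.

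The other group II genes of this cluster had few reads. Pla2g2d and Pla2g2f, on the far side of Pla2g5, had 9 and 6 reads over the WT-medium libraries and were listed at 0 in all Alox5KO-medium libraries. Pla2g2c had 1 and 5 reads, and Pla2g2e, the next gene on the far side of Pla2g2a, had 19 and 26. Pla2g2e starts 45.0 kilobases from Pla2g2a. It had 7, 2 and 10 reads in WT-medium replicates 1, 2 and 3, and 21, 2 and 3 in those with Alox5KO medium. Most of its Alox5KO-medium reads thus came from replicate 1, and the level was too low to test. RF00003, a small nuclear RNA row between Pla2g5 and Pla2g2a, was listed at 0 in every library. Beyond the cluster, the deubiquitinase gene Otud3 had 5.12 ± 0.0959 and 4.10 ± 0.770 FPKM, and its log2 fold change of -0.27 missed the threshold (limma, BH-adjusted p = 0.22).

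**Figure D2:**
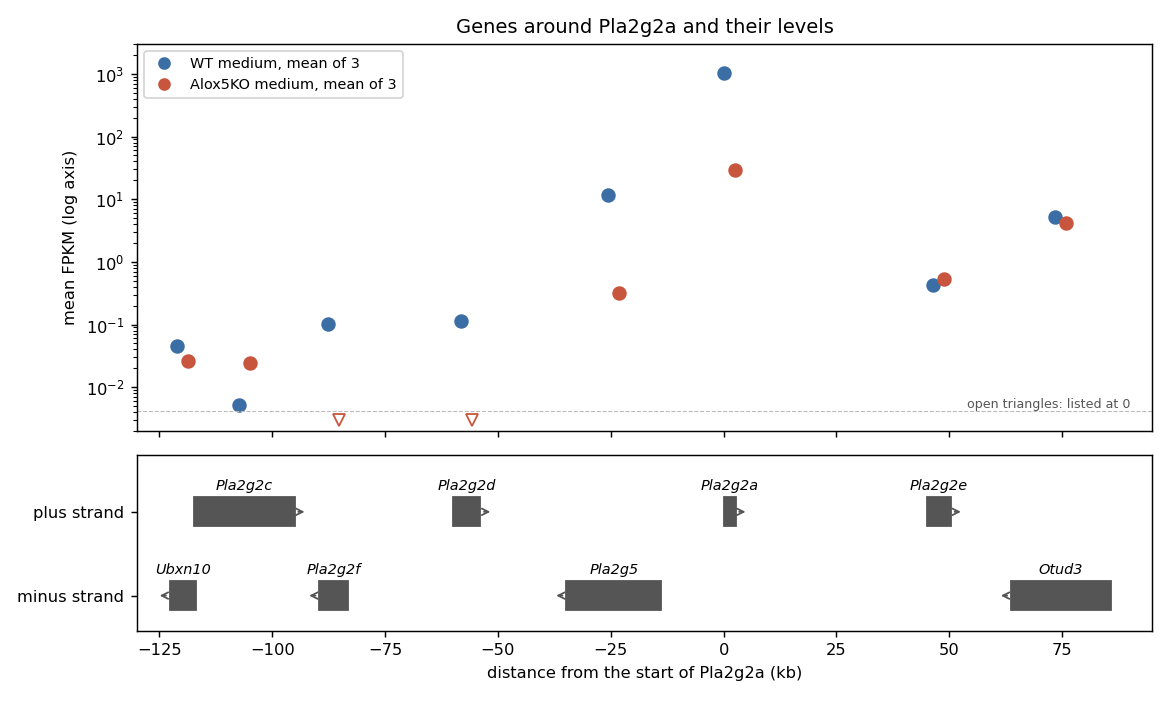
Protein-coding genes around Pla2g2a. The upper panel gives the mean FPKM of 3 libraries per medium (log axis) and the lower panel the extent and strand of each gene, against the distance from the start of Pla2g2a in kilobases. Open triangles mark genes listed at 0. Pla2g2a and Pla2g5 are lower with Alox5KO medium, at 29.0 against 1045 and 0.320 against 11.8 FPKM, while Otud3 has means of 4.10 and 5.12 FPKM.

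Among the intracellular forms, Pla2g4a was the single gene that fell. It encodes cytosolic phospholipase A2 alpha, the main supplier of arachidonic acid to cyclooxygenase and 5-lipoxygenase. Its level was 14.3, 12.9 and 15.9 FPKM in WT-medium replicates 1, 2 and 3, and 7.57, 6.82 and 5.65 FPKM in Alox5KO-medium replicates 1, 2 and 3. The lowest WT-medium library was above the highest Alox5KO-medium library. The mean went from 14.4 ± 1.55 to 6.68 ± 0.968 FPKM, which is 46.5% of the WT-medium level. The log2 fold change was -1.0 (SE 0.13, limma, BH-adjusted p = 7.4e-04).

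Pla2g6 encodes the calcium-independent phospholipase A2 beta, an enzyme of membrane upkeep. It had 4.88, 4.39 and 5.31 FPKM in the WT-medium libraries, against 4.12, 4.18 and 4.98 FPKM after Alox5KO medium, and the groups overlapped. Its log2 fold change of -0.11 had a 95% interval of -0.40 to 0.18 (limma, BH-adjusted p = 0.60). The ratio of Pla2g4a to Pla2g6 was 2.93, 2.93 and 3.00 with WT medium and 1.84, 1.63 and 1.14 with Alox5KO medium. The balance between these 2 cytosolic forms therefore differed without overlap, as Pla2g4a fell.

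Pla2g15, whose enzyme works at the acid pH of lysosomes, had 6.83, 6.77 and 7.0 FPKM in the WT-medium libraries, against 8.58, 6.81 and 8.48 FPKM after Alox5KO medium. The WT-medium values were close together, and Alox5KO-medium replicate 2 lay among them. The log2 fold change was 0.18, with a 95% interval of -0.09 to 0.45 (limma, BH-adjusted p = 0.34). Pla2g16 acts as a phospholipase and acyltransferase and takes part in the breakdown of organelle membranes. It had 4.72, 3.65 and 6.21 FPKM in the WT-medium libraries, against 7.78, 6.15 and 6.74 FPKM after Alox5KO medium. WT-medium replicate 3 reached into the range of the other group. Its log2 fold change of 0.45 had an unadjusted 95% interval of 0.06 to 0.84 but did not pass the test (limma, BH-adjusted p = 0.10). Without WT-medium replicate 3 it was 0.61 and passed (limma, BH-adjusted p = 0.027), over 16 alternatives the adjusted p ran from 0.027 to 0.31, and this was the only alternative in which Pla2g16 was called.

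Pla2r1 encodes a large C-type lectin receptor that binds and clears secreted phospholipases A2. Its values were 3.05, 3.20 and 2.98 FPKM in the WT-medium libraries, against 2.65, 2.52 and 2.42 FPKM after Alox5KO medium. All WT-medium libraries were above all others, but the gap was small, and the log2 fold change of -0.21 did not pass the test (95% interval -0.49 to 0.08, limma, BH-adjusted p = 0.30). Pla2r1 belongs to a family of related lectin receptors, for which a list of 4 other genes was used. Of these 2 were tested and both fell, beside 10.6% of all tested genes called lower. Cd302 went from 59.9 ± 4.36 to 36.9 ± 6.13 FPKM. Mrc2, a collagen uptake receptor, went from 50.5 ± 2.83 to 32.1 ± 7.74 FPKM. Their log2 fold changes were -0.69 and -0.66 (limma, BH-adjusted p of 0.0044 and 0.017). Mrc2 was not called when WT-medium replicate 1 or 3 or Alox5KO-medium replicate 3 was left out, or with TPM scaling, where its BH-adjusted p from limma was 0.052, 0.054, 0.067 and 0.058.

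**Figure D3:**
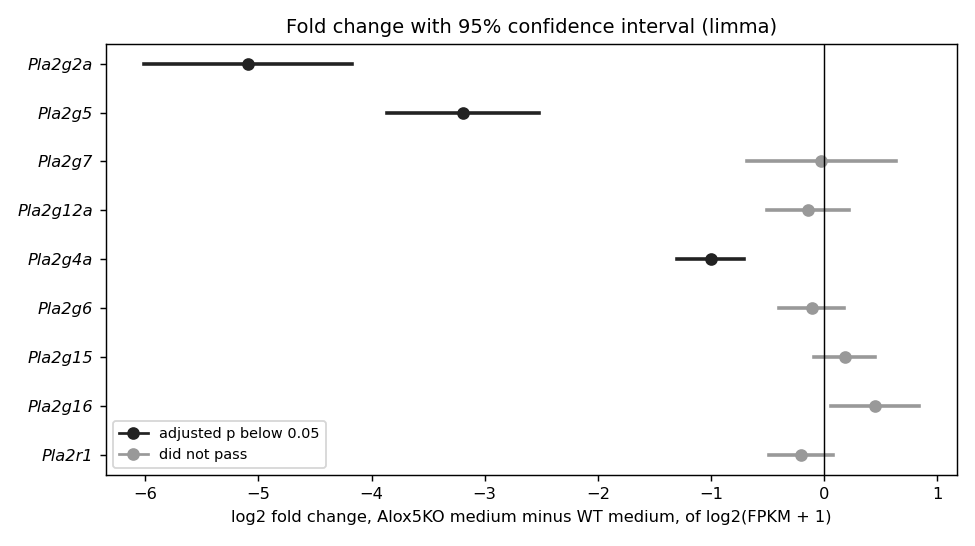
Log2 fold change of log2(FPKM + 1), Alox5KO medium minus WT medium, with unadjusted 95% confidence intervals from limma. Black marks an adjusted p below 0.05 and grey genes that did not pass. The intervals of Pla2g2a, Pla2g5 and Pla2g4a lie well below 0, and that of Pla2g16 lies above 0 without passing after adjustment.

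The order of the levels changed with the medium. With WT medium Pla2g2a stood far above the rest, followed by Pla2g4a and Pla2g5, whose ranges overlapped, and then by Pla2g15, which lay within the range of Pla2g5. Pla2g12a, Pla2g16, Pla2g6 and Pla2g7 overlapped with one another between 2.68 and 7.10 FPKM. Pla2r1 came last by mean and overlapped with Pla2g7. With Alox5KO medium Pla2g2a was followed by Pla2g15, Pla2g16 and Pla2g4a, whose ranges overlapped, then by Pla2g12a, Pla2g6 and Pla2g7, which also overlapped, and by Pla2r1, while Pla2g5 went from the third place to the last.

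Summed over the 4 secreted forms, the level was 1392, 1182 and 626 FPKM in the WT-medium libraries, against 42.4, 45.2 and 27.4 FPKM after Alox5KO medium. The 4 intracellular forms summed to 30.7, 27.7 and 34.5 FPKM in the WT-medium libraries, against 28.1, 24.0 and 25.8 FPKM after Alox5KO medium. The secreted sums were far apart between the groups, whereas the ranges of the intracellular sums overlapped. Secreted forms held 96.8% ± 1.73 of the sum of all 8 enzymes with WT medium and 59.0% ± 7.04 with Alox5KO medium. Pla2g2a alone accounted for 94.8% ± 1.77 and 44.4% ± 7.20. With Pla2g2a left out, the share of the secreted forms was 40.6% ± 11.0 and 26.5% ± 3.06, and the groups then overlapped.

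Within the WT-medium group the secreted and the intracellular forms were ordered differently. All 4 secreted forms were highest in replicate 1 and lowest in replicate 3, while all 4 intracellular forms were highest in replicate 3 and lowest in replicate 2. Some of these orders rest on small differences. Pla2g15 had 262, 243 and 276 reads in WT-medium replicates 1, 2 and 3, and Pla2g6 had 245, 206 and 274. How many of all tested genes share these orders was not examined. With Alox5KO medium the 4 secreted forms were again lowest in replicate 3, and the intracellular forms had no common order. In WT-medium replicate 3 Pla2g2a and Pla2g5 were thus nearest to the other group, and without this library their log2 fold changes were -5.43 and -3.55.

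**Figure D4:**
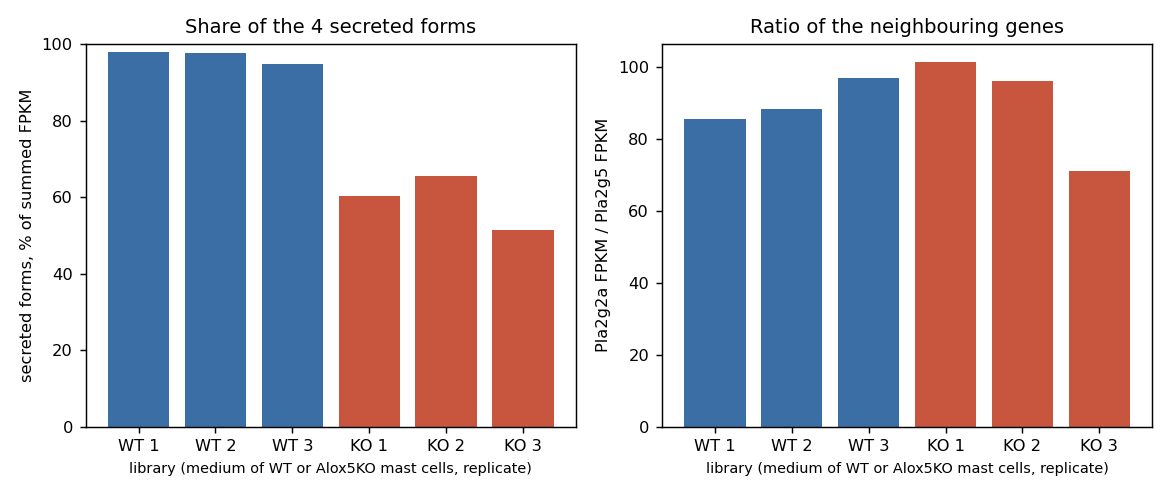
Left, the share of the 4 secreted forms in the summed FPKM of the 8 enzymes, in percent, for each library. Right, the ratio of Pla2g2a to Pla2g5. The share is between 94.8% and 97.8% with WT medium and between 51.4% and 65.4% with Alox5KO medium, while the ratio, from 70.9 to 101.2, overlaps between the groups. The Alox5KO-medium ratios divide by Pla2g5 values that rest on 8, 10 and 7 reads.

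In bulk RNA, fewer cells of a type and less RNA per cell cannot be told apart. Mast cells and macrophages can carry secreted phospholipases. Of 9 mast cell markers, Fcer1a, Ms4a2, Mcpt4 and Tpsb2 were listed at 0 in all libraries, the summed level was 43.4 to 61.4 FPKM with WT medium and 22.3 to 32.3 FPKM with Alox5KO medium, and 1 of the 2 tested genes fell. That gene was Cpa3, a mast cell carboxypeptidase, with 45.4 ± 7.69 and 19.6 ± 4.19 FPKM. Macrophage and leukocyte markers summed to 34.8 to 41.2 and 25.8 to 42.5 FPKM over 12 genes, with Cd163 at 0 throughout, and of 5 tested the most abundant, Cd14, alone fell, a call lost without WT-medium replicate 1 or 2 or Alox5KO-medium replicate 2 or 3 (limma, BH-adjusted p from 0.059 to 0.098). Smooth muscle and pericyte markers went the other way, from 1074 to 1175 FPKM with WT medium to 4973 to 6795 FPKM with Alox5KO medium over 9 genes. Of these, 7 of 8 tested rose, and 5 to 7 rose over the alternatives. Cardiomyocyte markers summed to 35 to 61.0 and 112 to 136 FPKM, and 5 of 9 tested rose, with 2 to 7 over the alternatives. The lowest counts, 5 and 2, came with the filter at 5 FPKM, which tested 6 and 3 genes. Among fibroblast markers 3 of 12 rose and 4 fell, with 2 to 3 and 3 to 4 over the alternatives. Over all tested genes 10.0% rose and 10.6% fell. Mesothelial markers, led by Wt1, summed to 33.5 to 39.6 and 26.3 to 32.1 FPKM, with 1 of 4 tested lower, and of the endothelial markers, with Emcn at 0, the only tested gene, Tek, was lower, a call lost without WT-medium replicate 2 or 3 or Alox5KO-medium replicate 1 or 3, with no filter on low values or with TPM scaling (limma, BH-adjusted p from 0.068 to 0.11). The part of these differences in the phospholipase results was not tested.

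Rows without a symbol or with a placeholder name were left out of this list. Among the other tested genes, the profiles over the 6 libraries most like that of Pla2g2a were those of Wfdc21, Ptges, Pvalb, Csf2rb and Serpinb2. Likeness was measured as the root mean square difference of log2(FPKM + 1), after each gene was centred on its own mean. The difference was 0.26 for Wfdc21, a gene of the WAP domain family, 0.36 for Ptges, the inducible prostaglandin E synthase, and 0.39 for Pvalb, a calcium-binding protein. It was 0.45 for Csf2rb, a receptor subunit shared by several haematopoietic cytokines, and 0.45 for the protease inhibitor Serpinb2. Counted over all tested genes, placeholder names included, Pla2g5 was the 33rd nearest at 0.98, and the nearest after it among the 9 was Pla2g4a at 2.09. Because the measure keeps the size of a change, only genes with a similar fall can be near. Adding 1 to each value shrinks the fall of Pla2g5 on this scale, which adds to its distance. In FPKM, Pla2g2a and Pla2g5 fell to 2.77% and 2.71% of their WT-medium means.

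Other phospholipase A2 genes were mostly below the filter. Of 10 other secreted forms and relatives in the table, 9 had a mean under 1 FPKM and 2 were listed at 0 throughout. The tenth, Proca1, had 2.40 ± 0.845 and 2.08 ± 0.328 FPKM and did not pass. Of the cytosolic group IV genes from Pla2g4b to Pla2g4f, 4 of 5 had a mean under 1 FPKM, and Pla2g4b had 1.01 ± 0.152 and 1.04 ± 0.279 FPKM. Pla2g4a was therefore the only group IV gene clearly above a level of 1 FPKM.

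Of 13 tested genes for other intracellular phospholipases and related enzymes, 1 rose and 1 fell, beside 10.0% and 10.6% of all tested genes. Hrasls, a relative of Pla2g16 also called Plaat1, rose from 0.563 ± 0.181 to 2.73 ± 0.767 FPKM, a log2 fold change of 1.24 (limma, BH-adjusted p = 0.0024). Pnpla8, a calcium-independent phospholipase of mitochondria and peroxisomes, fell from 24.6 ± 0.313 to 15.4 ± 2.42 FPKM, a log2 fold change of -0.66 (limma, BH-adjusted p = 0.0046). Pafah1b3 and the lipase Pnpla2 had log2 fold changes of 0.39 and 1.03 that did not pass (limma, BH-adjusted p of 0.072 and 0.23). Leaving out WT-medium replicate 3 gave 2 rises, where Pnpla2 passed (limma, BH-adjusted p = 0.032), and 2 with TPM scaling, where Pafah1b3 did (limma, BH-adjusted p = 0.029).

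Of 15 tested regulators of phospholipase A2, a list that holds activators and inhibitors alike, 6 rose and 0 fell, beside 10.0% and 10.6% of all tested genes. The median log2 fold change was 0.23. S100a10, a small protein reported to bind and inhibit the cytosolic enzyme, rose from 289 ± 59.4 to 559.8 ± 30.2 FPKM, by 0.97 on the log2 scale. Vimentin, Vim, an intermediate filament that binds the same enzyme and is also counted among the fibroblast markers, rose by 0.80, the calcium-dependent kinase gene Camk2d by 0.60 and the annexin gene Anxa3 by 0.70. Anxa5 and the p38 kinase gene Mapk14 were the other 2 that rose, by 0.67 and 0.33. Anxa1, at a log2 fold change of 0.34, did not pass (limma, BH-adjusted p = 0.061). It passed with quantile normalization, TPM scaling and limma voom (BH-adjusted p of 0.0044, 0.0096 and 0.027), each of which gave 7 rises. The call of Mapk14 (limma, BH-adjusted p = 0.031) was lost without WT-medium replicate 1 or 2 or Alox5KO-medium replicate 2 or 3, at adjusted p from 0.063 to 0.12.

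Enzymes that return fatty acids to lysophospholipids, the Lands cycle, showed 2 falls and 1 rise among 13 tested genes, a share close to the 20.7% called among all tested genes, with a median of -0.24. Acsl1, which activates fatty acids, fell from 17.1 ± 1.39 to 8.14 ± 0.217 FPKM, a log2 fold change of -0.98 (limma, BH-adjusted p = 1.9e-04). Lpgat1, an acyltransferase, fell by 0.50. Lclat1 rose by 0.45 (limma, BH-adjusted p = 0.043), a call lost without WT-medium replicate 1 or 2 or Alox5KO-medium replicate 1 or 2, or with no filter on low values, at adjusted p from 0.074 to 0.15. Mboat1, at a log2 fold change of -0.51, did not pass (limma, BH-adjusted p = 0.070), but did without Alox5KO-medium replicate 3 and with limma voom (BH-adjusted p of 0.027 and 0.049).

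Of 13 tested genes for lysophospholipid breakdown and conversion, 2 fell and 1 rose, with a median of -0.02, again a share close to the 20.7% of all tested genes. Enpp2, which encodes autotaxin and makes lysophosphatidic acid from lysophosphatidylcholine, fell from 53.2 ± 7.29 to 11.1 ± 4.67 FPKM, a log2 fold change of -2.22 (limma, BH-adjusted p = 0.0020). Plpp3, a phosphatase that removes lysophosphatidic acid, fell from 29.7 ± 2.21 to 8.88 ± 0.255 FPKM, by 1.63 on the log2 scale. Plpp1, a more abundant phosphatase of the same family, did not pass at a log2 fold change of -0.23 (limma, BH-adjusted p = 0.24). Gdpd1 rose by 0.70 (limma, BH-adjusted p = 0.031), a call lost without WT-medium replicate 1 or 2 or Alox5KO-medium replicate 1 or 3, or with no filter on low values, at adjusted p from 0.068 to 0.11. Plpp2, at a log2 fold change of 0.34, did not pass (limma, BH-adjusted p = 0.081), but did without Alox5KO-medium replicate 1 (BH-adjusted p = 0.040). Leaving out Alox5KO-medium replicate 2 gave 3 rises, as Abhd6 and Lypla1 then passed (limma, BH-adjusted p of 0.035 and 0.045).

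Among receptors for lysophospholipids and platelet-activating factor, 4 of 12 were tested and 1 fell, beside 10.6% of all tested genes. Lpar4, a lysophosphatidic acid receptor, fell from 11.7 ± 1.68 to 2.91 ± 0.804 FPKM, a log2 fold change of -1.71 (limma, BH-adjusted p = 2.1e-04). Lpar1 and Lpar6 had log2 fold changes of 0.22 and 0.28, and Ptafr, the receptor for the substrate of the Pla2g7 enzyme, one of 0.10, none of which passed.

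Among 14 tested genes for other routes of arachidonate release, 5 rose and 1 fell, beside 10.0% and 10.6% of all tested genes. The median log2 fold change was 0.25. The phospholipase C genes Plcb4 and Plce1 rose by 0.74 and 0.92 and the phospholipase Ddhd2 by 0.48. Daglb, a diacylglycerol lipase, fell from 7.80 ± 1.17 to 3.75 ± 0.245 FPKM, a log2 fold change of -0.88 (limma, BH-adjusted p = 0.0015). Leaving out WT-medium replicate 1 gave 2 rises, where Ddhd2 was not called (limma, BH-adjusted p = 0.056), and 3 without Alox5KO-medium replicate 3. Pld1 and Plcd3 also rose (limma, BH-adjusted p of 0.012 and 0.045). The call of Pld1 was lost without WT-medium replicate 1 or Alox5KO-medium replicate 3 (limma, BH-adjusted p of 0.055 and 0.05005). That of Plcd3 was lost without WT-medium replicate 1 or 2 or Alox5KO-medium replicate 2 or 3. It was also lost with no filter on low values or with TPM scaling. Of 10 tested genes of arachidonate oxidation 3 fell and 0 rose, beside 10.6% and 10.0% of all tested genes, with a median of -0.12. They were Ptges, Ptgs2, the inducible cyclooxygenase, and Alox5, at log2 fold changes of -5.43, -2.16 and -1.68, while Ptges2 at -0.29 did not pass (limma, BH-adjusted p = 0.13).

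**Figure D5:**
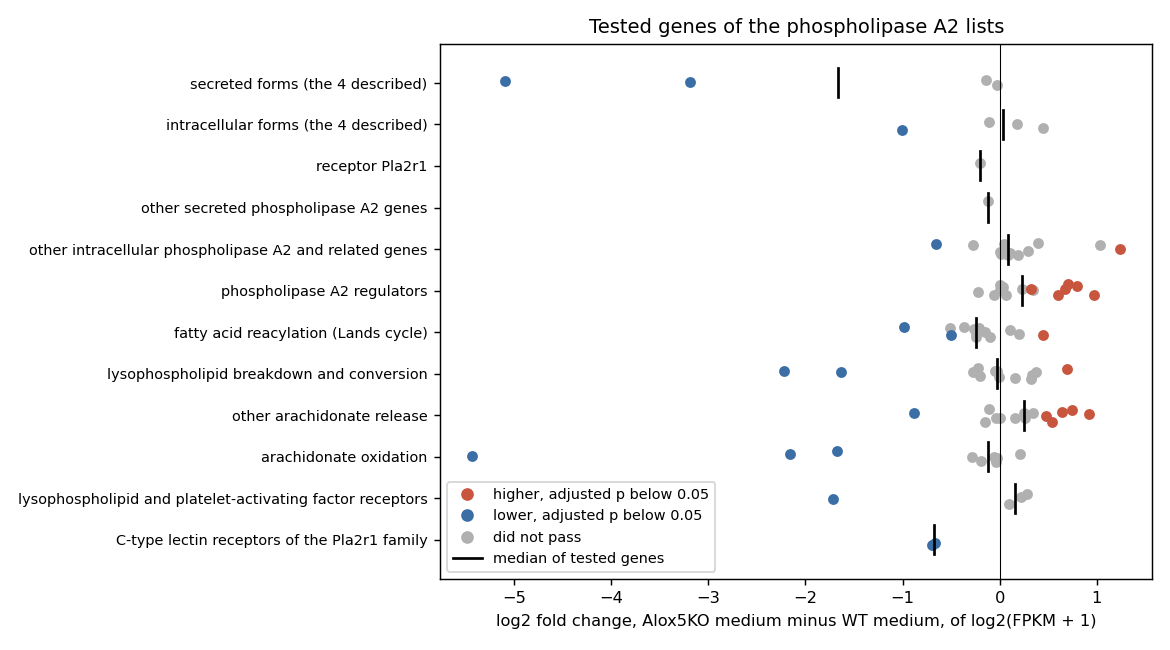
Log2 fold change of log2(FPKM + 1), Alox5KO medium minus WT medium, of each tested gene in the lists. Each point is a gene, red or blue where the adjusted p was below 0.05 and grey where it was not, and black bars are list medians. Pla2g2a and Ptges are the points furthest to the left, at -5.09 and -5.43.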

How the data were processed

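RNA was sequenced from 6 libraries, 3 per group, and groups and replicate numbers come from the sample labels. The authors deposited FPKM values with gene lengths and positions, per the file headers. Per the submitters' processing notes, which assign no roles, the mouse build mm10 is named, as are HISAT2 2.0.5, featureCounts 1.5.0-p3, fastp, CASAVA 1.8 and DESeq2 1.20.0. Yet 32883 of 33682 rows carry rat Ensembl identifiers and 0 carry mouse ones. Whether strand was used is not given here. Mouse reference sequences were not used for these rat genes.

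Reads were recovered as FPKM times gene length divided by a step per column, whole within 0.05 reads for 100% of values above 0. At a length of 1 kilobase, 3 reads equal 0.185 to 0.228 FPKM, a floor for counting error only.

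Groups were compared genome-wide with limma 3.58.1 in R 4.3.3 on log2(FPKM + 1), for the 12341 genes averaging 1 FPKM or more, with trended and robust variances, two-sided tests and p-values Benjamini-Hochberg adjusted over them. The fit was run on simulated data with the same relative spread for every gene. That setting is simpler than these libraries, so it does not show how well the p-values hold here. Within each list up to 4 genes with the smallest p are named. For the called gene with the largest fall the 5 nearest profiles are named, without rows that lack a symbol or carry a placeholder name. Abhd6, Anxa1, Anxa5, Lypla1, Mapk14, Otud3, Plcd3, Pld1 and Plpp1 were named after their values were seen. The 9 genes and all lists were chosen with earlier results of these data known, so their calls are no independent support. Alternatives were 2 pseudocounts, 2 filters, 3 scalings, limma without trend, limma voom on recovered reads, a replicate block and each library left out.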

Additional observations from a re-analysis of the deposited data

How the results depend on the processing

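Pla2g2a, Pla2g5 and Pla2g4a fell and passed the test in all 16 alternatives. Their log2 fold changes ran from -5.43 to -4.84, from -4.99 (limma voom on recovered reads) to -2.95, and from -1.10 to -0.90. The number of called secreted forms was 2 throughout. The number of called intracellular forms was 1, and with 1 library left out it ran from 1 to 2, the latter without WT-medium replicate 3, where Pla2g16 was called at a log2 fold change of 0.61. Of 141 fold changes of the 9 genes under alternatives, 140 kept their side of the threshold. Pla2g6, Pla2g7 and Pla2r1 were not tested at a mean of at least 5 FPKM, and the sign of Pla2g7 and Pla2g12a, neither called, changed with the library left out.

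With the replicate number as a block the counts of called forms were 2 secreted and 1 intracellular, and the block changed no call of the 9 genes. Among the other genes named, the block added Pnpla2 and Pafah1b3 (limma, BH-adjusted p of 0.0076 and 0.046), for 3 rises in place of 1 in their list, and ended the call of Lclat1 (0.053). The numbers were not treated as pairs, because the labels do not say that a shared number marks a shared culture or day. Same-numbered libraries had correlations of their deviations of -0.10, 0.10 and 0.17, and differently numbered ones of -0.19 to 0.10. These values do not settle whether the libraries were paired. Over all genes 1238 were called higher and 1313 lower, and 791 and 862 without WT-medium replicate 1. Genes below about 0.2 FPKM rest on a handful of reads.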
